A study of Mus musculus with 3 samples.

Results

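The tissue described here is the part of the Day 7 skin wound slide that carried abundant RNA but lay outside the spots marked as tissue in the deposited position list. On the Visium platform a frozen section lies on a grid of spots, each spot carries a positional barcode, and captured polyadenylated RNA is counted per gene and spot by unique molecular identifiers (UMIs). A spot was taken as a member when it was not marked, held at least 1000 UMIs and had no marked spot among its 6 neighbours on the hexagonal grid. This rule gave 1383 of the 4992 spots of the Day 7 slide, and of 14976 spots in the series. The spots were thus chosen by their UMI depth, so that depth itself is a description here and not a finding. The question was which tissues these unmarked spots hold, and how their RNA differs from that of the 525 marked spots with at least 1000 UMIs.

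The series held full-thickness dorsal skin wounds of adult male C57BL/6J mice, taken on Day 3, Day 7 and Day 14 post injury as fresh frozen sections, with 1 section per day and no uninjured or treated group. The wounds were made with a biopsy punch and harvested with a wider one. The study's supplement shows photographs of the sections on which selected spots give the region of interest. Whether these are the marked spots, and how they were chosen, is not given in the sources used here. There were no replicate sections, so no test between groups of spots or between days was possible. All 95% intervals are exact and cover counting error only. Spots of 1 section are not replicates, and each can hold several cells of different kinds, so fewer cells of a kind and less RNA per cell cannot be told apart.

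Dorsal mouse skin is layered. Below the keratin-rich epidermis and the collagen-rich dermis lies fat, then a thin sheet of striated muscle, the panniculus carnosus, whose fibres are mostly of the fast type, then loose fascia over the muscles of the back. Depots of brown fat, whose mitochondria carry the uncoupling protein UCP1 and burn fatty acids for heat, lie between the shoulder blades and around the neck. In a healing wound the gap is filled by granulation tissue, a matrix of new collagen, fibroblasts, vessels and macrophages, while the epidermis closes over it.

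The unmarked spots together held 4841016 UMIs, which was 44.4% of all UMIs of the slide, against 4429351 UMIs (40.6%) in the marked spots. A member spot held 1000, 2300 and 51420 UMIs at the lowest, the median and the highest, and lay 1.73 to 33.6 spot pitches from the nearest marked spot. The median marked spot was deeper, with 7128 UMIs. Just inside the depth limit, 82 members of 1000 to 1099 UMIs had a median of 580 detected genes, and just outside it, 84 spots of 901 to 999 UMIs had a median of 507. A further 94 unmarked spots passed the depth limit but touched a marked spot and were left out.

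The members formed 19 patches of adjacent spots. The largest, called the lower area from its place on the array, held 962 spots, 3817413 UMIs and 35.0% of the UMIs of the slide. The next, called the upper area, held 384 spots, 969679 UMIs and 8.90% of them, and the remaining 37 spots lay in 17 small patches. This split was made after the data were seen. Both areas were compared with the same marked spots, so their ratios share that denominator.

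**Figure D1:**
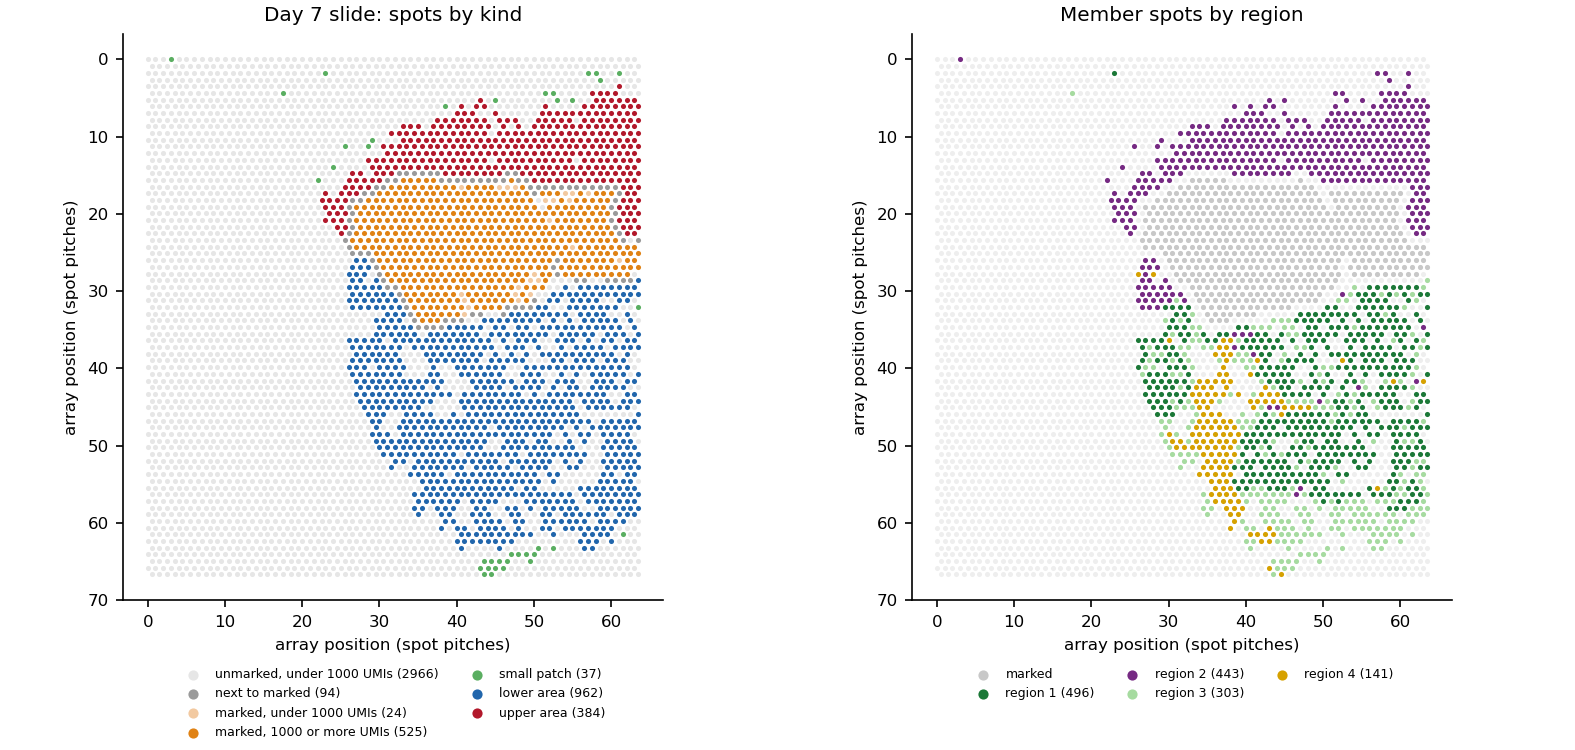
Map of the Day 7 slide by array position, with a point for each spot, coloured by the set of spots it belongs to. The 962 spots of the lower area spread away from the lower side of the marked block and the 384 spots of the upper area from its upper side.

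Depth by distance was taken over unmarked spots of any depth that lay under 3 pitches from a member. Shallow spots far from every member are thus left out of these medians. Among these spots depth fell with distance from the marked block, more on the upper side. On the upper side the median was 3774 UMIs at 1 to 2 pitches and 649 UMIs at 10 pitches or more. On the lower side it was 2597 UMIs at 1 to 2 pitches and 1338.5 UMIs at 10 or more. In all, 24 spots of the lower and 21 of the upper area lay on the edge of the array.

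The 2 edges of the marked block also differed in tissue. The 43 marked spots facing the lower area held the 12-gene epidermis list at 2976 CPM (UMIs per 1000000 UMIs of all genes), against 13525 CPM in the 52 marked spots facing the upper area, a log2 ratio of -2.18 (95% interval -2.35 to -2.02). For the 12-gene list of skeletal muscle genes of all fibre types the same ratio was 1.15 (1.11 to 1.20). The marked block therefore carried an epidermal edge towards the upper area and a muscle-rich edge towards the lower area. The upper area itself held the epidermis list at 12235 CPM (12016 to 12457), below the 13525 CPM of the edge facing it.

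Across the whole transcriptome, a gene was called when it had at least 50 UMIs over both groups and its 95% interval lay wholly past a 2-fold difference. In unmarked over marked tissue 210 of 11134 genes (1.89%) were called higher and 353 (3.17%) lower, and the median gene stood at a log2 ratio of -0.43. The 12 fast-fibre genes and the mitochondrial genome made up 96716 and 108322 CPM of the unmarked RNA, against 40350 and 37184 CPM of the marked RNA, and the split of calls depended on the scaling. With TMM factors the median gene stood at -0.01, and 539 genes were called higher and 38 lower, with DESeq2 size factors 545 and 36. Ratios below are on the CPM scale, where a gene at -0.43 over all unmarked spots moved with the median.

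In the lower area over the marked spots, 314 of 10814 genes (2.9%) were called higher and 1228 (11.4%) lower, and its median gene stood at -0.60. In the upper area 80 of 10101 (0.792%) were called higher and 3 (0.0297%) lower, and its median gene stood at -0.03. The upper area held 969679 UMIs against 3817413 in the lower area. Its intervals were therefore wider, and the numbers of calls in the areas are not on a like footing. The areas also differed from each other, with 216 of 8702 genes (2.48%) higher and 756 (8.69%) lower in the lower than in the upper area. The pooled unmarked tissue is thus a mixture of 2 profiles, and each group of genes is given below for both areas.

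**Figure D2:**
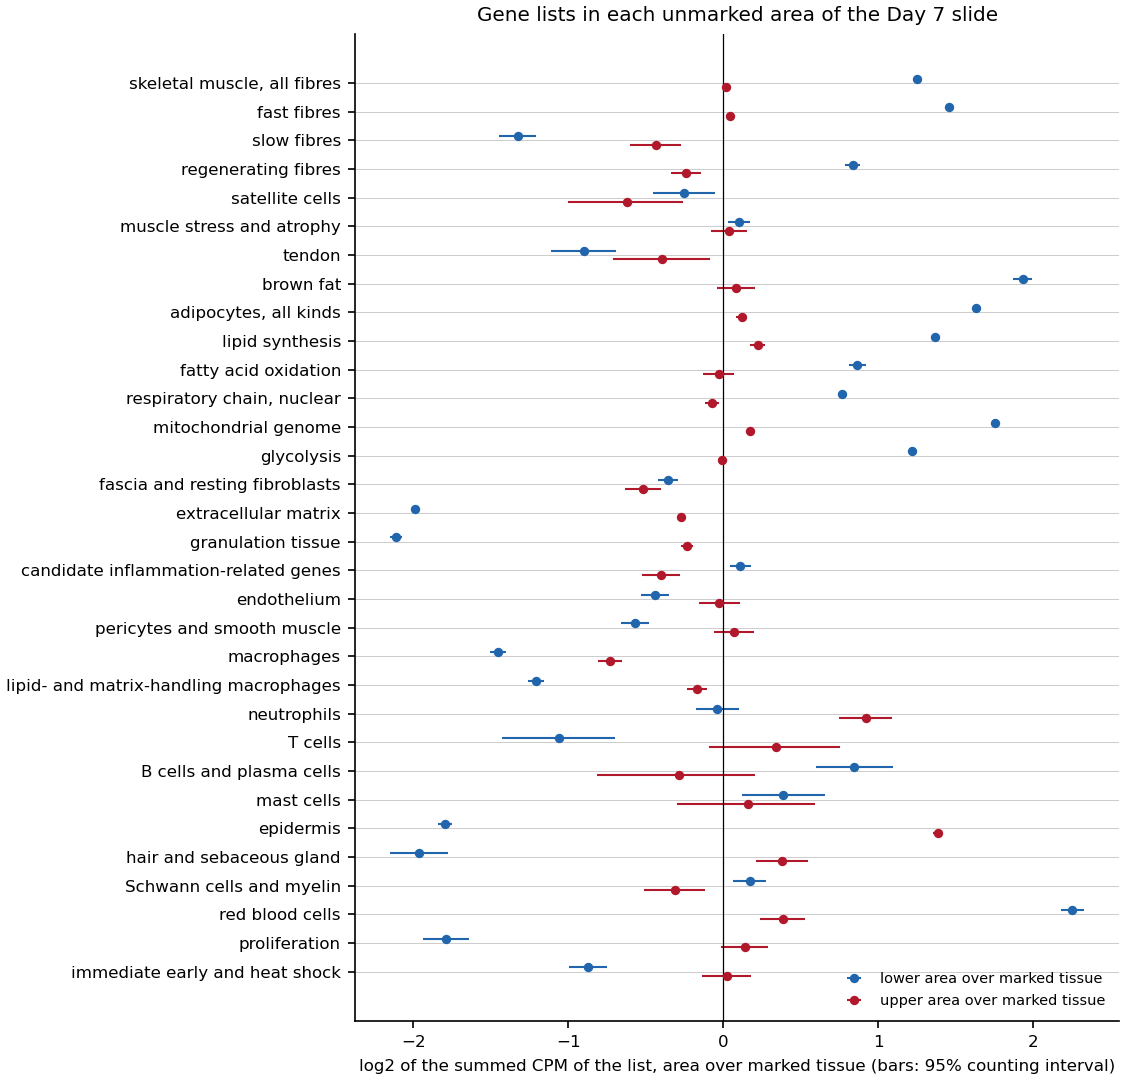
Log2 ratio of summed CPM over the marked spots for each of the 32 gene lists, in the lower area and the upper area, with exact 95% intervals for counting error. Brown fat (1.93), adipocyte (1.63) and mitochondrial genome (1.75) lists stood highest with red blood cells (2.25) in the lower area, and the epidermis list stood at 1.39 in the upper and -1.79 in the lower area.

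Skeletal muscle genes were abundant in the unmarked spots. *Acta1*, the actin of adult skeletal fibres, stood at 23142 CPM (23007 to 23278) against 11174 CPM (11076 to 11273) in marked tissue. *Myh4*, the myosin heavy chain of the fastest type IIB fibres, stood at 19419 CPM (19295 to 19544) against 7057 CPM (6979 to 7135), a log2 ratio of 1.46 (1.44 to 1.48). *Trdn*, which encodes triadin of the calcium release complex, stood at 518 CPM against 116 CPM, a ratio of 2.16 (2.02 to 2.30). Of the 12 counted genes of the list for all fibres 6 were called higher and 0 lower, and of the 12 fast-fibre genes 9 were called higher and 0 lower.

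This muscle signal lay in the lower area. There the list for all fibres stood at a log2 ratio of 1.25 and the fast-fibre list at 1.46, with 8 of 12 and 10 of 12 genes called higher. In the upper area both lists were close to the marked level, at 0.02 and 0.04, with no gene of either called. *Myh4* was found in all 962 spots of the lower area, with 4, 63 and 454 UMIs at the lowest, the median and the highest, and in all 384 spots of the upper area, with 3, 15 and 167 UMIs. It was also found in all 525 marked spots, with 6, 54 and 217 UMIs, so that no spot of these sets was free of muscle RNA.

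Fibres of other types had less RNA in the unmarked tissue. *Myh1* and *Myh2*, the heavy chains of the IIX and IIA fibres, stood at log2 ratios of -1.01 (-1.09 to -0.93) and -1.41 (-1.86 to -0.98). In the lower area, where *Myh4* was higher, they stood at -1.11 and -1.72, so that members of the fast-fibre list moved in opposite directions. *Mb*, the oxygen store myoglobin, stood at 140 CPM against 257 CPM. Of the 7 counted genes of the slow-fibre list 4 were called lower and 0 higher, among them *Tnnt1*, the slow troponin T, with 9 UMIs in unmarked and 52 in marked tissue. *Myh7*, the heavy chain of slow fibres, had 1 UMI in the unmarked and 2 in the marked spots.

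The heavy chain genes lie side by side on chromosome 11 (mm10, chr11:67078300-67308634), in the order *Myh3*, *Myh2*, *Myh1*, *Myh4* and *Myh8* over 230 kb. Their sequences are alike, so reads shared between them may have been split or dropped by the counting, and the values of the minor members are uncertain to that degree. *Myh4* itself lies at chr11:67238029-67260446. The UMIs of *Myh1* per UMI of *Myh4* were 0.0166 (0.0157 to 0.0175) in the lower area, 0.0621 (0.0565 to 0.0682) in the upper area and 0.114 (0.110 to 0.118) in marked tissue.

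Genes of growing and regenerating fibres were split. *Actc1*, the cardiac actin that skeletal fibres make during development and repair, stood at 1516 CPM (1481 to 1551) in unmarked and 615 CPM (592 to 638) in marked tissue, and at 1740 CPM in the lower area. *Mybph*, a myosin-binding protein, stood at 288 CPM against 137 CPM. The genes of newly formed fibres went the other way. *Myh8*, the perinatal heavy chain, had 64 UMIs in unmarked and 313 in marked spots, a log2 ratio of -2.42 (-2.83 to -2.03), and reached at most 2 UMIs in a member spot against 47 in a marked spot. *Myl4*, the embryonic light chain, stood at -2.06 (-2.28 to -1.84).

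The fusion proteins of myoblasts showed the same side as *Myh8*. *Mymk*, myomaker, had 15 UMIs against 77, and *Mymx*, myomixer, had 11 against 59. *Myog*, a transcription factor of differentiating myoblasts, stood at 14.7 CPM against 34.5 CPM. Of the 11 counted genes of the regenerating-fibre list 1 was called higher (*Actc1*) and 5 lower, although the summed list stood at 0.67, and *Actc1* gave 7338 of its 9372 UMIs. *Myod1*, which marks activated satellite cells, stood at 10.9 CPM (8.20 to 14.3) against 3.84 CPM (2.24 to 6.15), with no call at 2-fold. The summed satellite cell list, to which it belongs, went the other way at -0.31, close to the median gene. More satellite cells are therefore not read from *Myod1*. Of the stress and atrophy list, 2 of 10 genes were called higher, among them *Trim63*, the ubiquitin ligase MuRF1, with 125 CPM against 46.1 CPM.

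Fat genes were the next group of the lower area. Of the 12 counted adipocyte genes 10 were called higher in unmarked tissue and 0 lower. *Adipoq*, the hormone adiponectin, stood at 650 CPM (628 to 673) against 201 CPM (188 to 215), *Cfd*, the secreted protease adipsin, at 7010 CPM against 2394 CPM, and *Car3*, the carbonic anhydrase of fat and muscle, at 3199 CPM against 677 CPM. The list stood at a log2 ratio of 1.63 in the lower and 0.12 in the upper area. *Adipoq* had a UMI in 425 of 962 spots of the lower area, with a median of 0 and a highest value of 110, and in 376 of 525 marked spots, with a highest value of 11. Thinned to 1000 UMIs, the share of spots with an *Adipoq* UMI was 25.6% (22.8 to 28.5) in the lower area and 18.3% (15.1 to 21.9) in marked tissue, and at 2000 UMIs 40.4% (36.4 to 44.5) and 34.0% (29.7 to 38.4). The unthinned shares stood in the opposite order of these and of the CPM.

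Brown fat genes were among the highest lists. *Ucp1*, the uncoupling protein (chr8:83290352-83298452), stood at 368 CPM (351 to 385) in unmarked and 96.9 CPM (87.9 to 106) in marked tissue, a log2 ratio of 1.93 (1.77 to 2.08). In the lower area it stood at 432 CPM and in the upper area at 110 CPM. *Cidea*, a lipid droplet protein of brown adipocytes, stood at 195 CPM against 62.8 CPM, and *Cox8b*, a cytochrome c oxidase subunit that muscle makes too, at 1298 CPM against 336 CPM. *Elovl3*, a fatty acid elongase of brown fat that sebaceous glands and epidermis also make, went the other way, at 16.3 CPM against 36.1 CPM. Of the 8 counted brown fat genes 4 were called higher and 0 lower.

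The *Ucp1* UMIs were few per spot and unevenly placed. A member spot had 0 UMIs of it at the median and 172 at the highest, and 322 of 1383 members had at least 1 UMI. At equal depth, after each spot was thinned to 1000 UMIs, 12.3% of members (10.6 to 14.1) had a *Ucp1* UMI, against 8.38% of marked spots (6.16 to 11.1) and 7.81% of upper-area spots (5.33 to 11.0). Thinned to 2000 UMIs, the shares were 17.9% of 777 members (15.3 to 20.8), 20.1% of 477 marked spots (16.6 to 24.0) and 17.6% of 182 upper-area spots (12.3 to 23.9). The order of members and marked spots at 1000 UMIs thus turned round at 2000 UMIs, and no order is read from the shares. The unthinned shares were 23.3% and 49.0% in members and marked spots, whose median depths were 2300 and 7128 UMIs. No set of spots known to lack brown fat was at hand on this slide, and in the spots of under 200 UMIs far from all members and marked spots the brown fat list stood at 954 CPM, above its 633 CPM in marked tissue.

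Genes of fat metabolism followed. Of the 8 counted lipid synthesis genes 5 were called higher, among them *Fasn*, fatty acid synthase, at 2305 CPM against 928 CPM, and *Thrsp*, a lipogenic regulator, at 746 CPM against 144 CPM. *Elovl6*, the elongase of long-chain fatty acids, stood at 184 CPM against 295 CPM. Of 10 genes of fatty acid oxidation 0 were called, although the list stood at 0.72 (0.67 to 0.77). All 12 counted transcripts of the mitochondrial genome were called higher, with *mt-Co1* at 15872 CPM against 3633 CPM, and the list reached a ratio of 1.75 in the lower and 0.17 in the upper area. Of 10 nuclear genes of the respiratory chain 2 were called higher, and of 10 glycolytic genes 5 were.

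**Figure D3:**
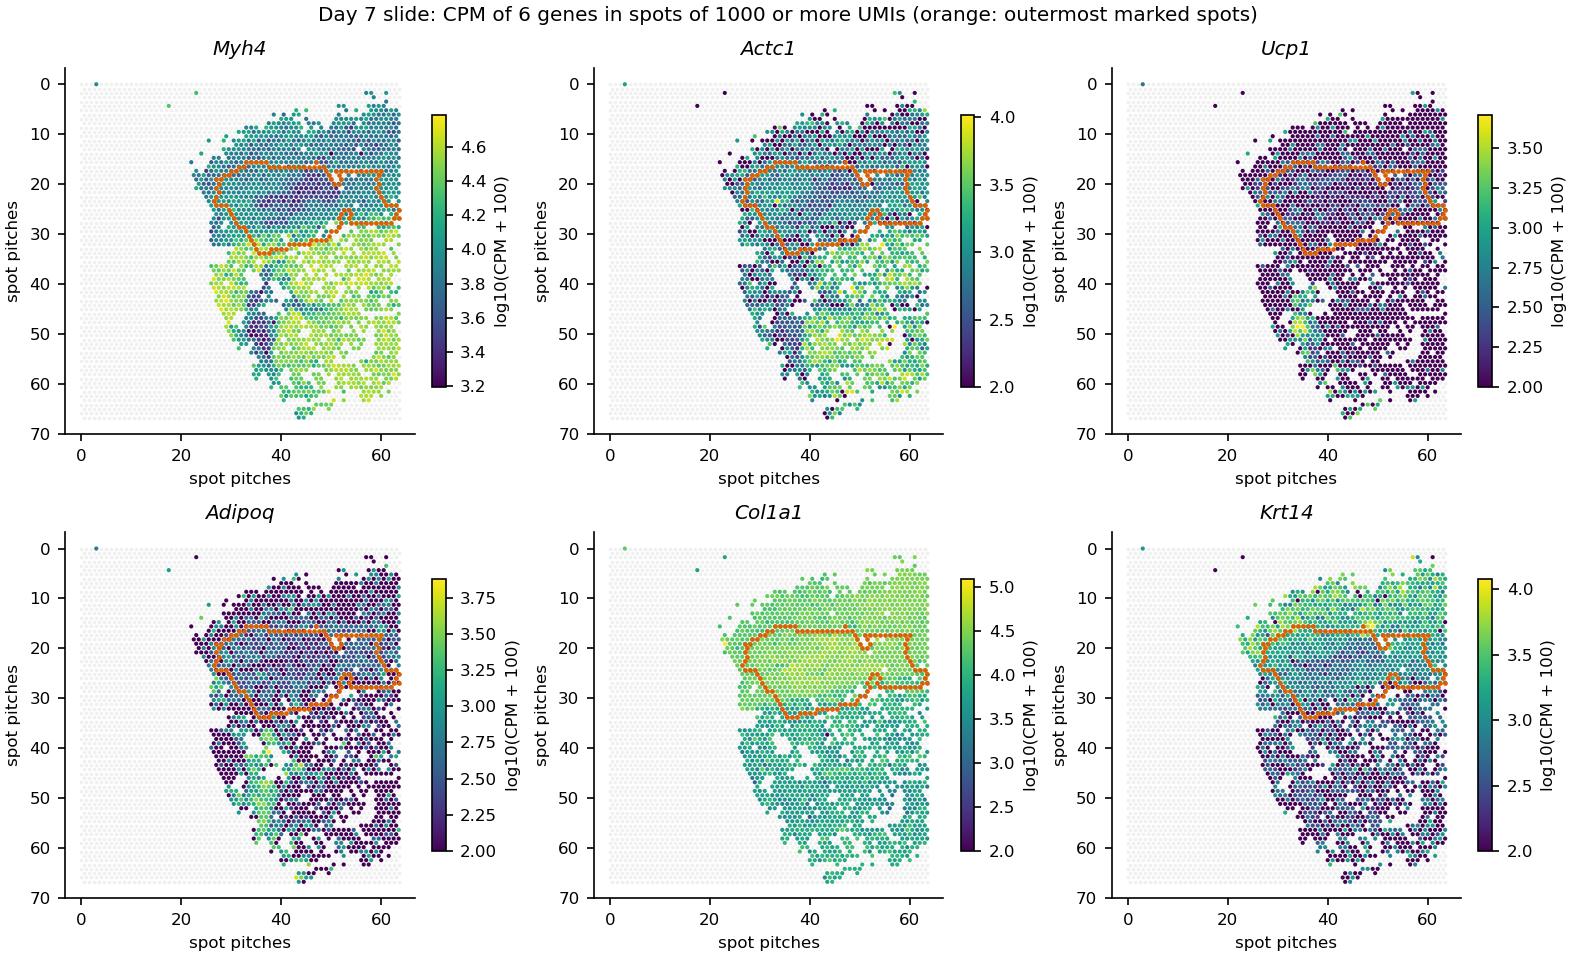
Maps of *Myh4*, *Actc1*, *Ucp1*, *Adipoq*, *Col1a1* and *Krt14* in the Day 7 spots of at least 1000 UMIs, coloured by log10 of CPM plus 100, with the outermost marked spots outlined in orange. *Myh4* is high over most of the lower area, *Ucp1* and *Adipoq* are high in a large patch within it, and *Col1a1* and *Krt14* are higher in the upper than in the lower area.

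To describe the tissues without the listed genes, the members were clustered into 4 regions on their variable genes, with all 308 listed genes left out. Region 1 held 496 spots, 494 of them in the lower area. Its leading genes by ratio were *Ppp1r3a*, which targets a phosphatase to muscle glycogen, *Rbfox1*, a splicing factor of muscle and neurons, and *Trdn*. The fast-fibre list made up 167139 CPM of it. Region 3 held 303 spots, 286 of them in the lower area, and was the shallowest, with a median of 1362 UMIs, and the farthest, with a median of 20.7 pitches. Its leading genes (*Usp39*, *Map1s* and *Sptb*) had 20 to 29 UMIs each, and its fast-fibre list stood at 136683 CPM and its adipocyte list at 13765 CPM.

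Region 4 held 141 spots, 139 of them in the lower area, with 1024, 4553 and 51420 UMIs per spot at the lowest, the median and the highest. It was led by *Ucp1*, *Cidea* and *Orm1*, which encodes a secreted acute-phase protein, and it held 26.2% of all member UMIs. The adipocyte list stood at 56660 CPM, the brown fat list at 4325 CPM and the mitochondrial genome at 178597 CPM, while the fast-fibre list stood at 23846 CPM. Of the 1781 *Ucp1* UMIs of the unmarked tissue 1496 lay in this region. The listed genes did not enter the clustering, but the same spots gave both, so these levels describe the region and do not test it.

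Region 4 was itself made of unlike patches, which were picked out after the data were seen. The largest patch held 107 spots and 1129376 UMIs, at 2.65 to 26.9 pitches from marked tissue. In it *Ucp1* stood at 1300 CPM (1234 to 1368), *Cidea* at 666 CPM and *Adipoq* at 1910 CPM (1830 to 1992). The next patch held 15 spots and 82087 UMIs, with *Adipoq* at 1815 CPM (1535 to 2131), but *Ucp1* at 158 CPM (84.3 to 271) and *Cidea* at 85.3 CPM. *Pi16*, a marker of the fibroblasts of fascia, stood at 719 CPM in this small patch, and the fascia list at 1913 CPM. These 2 patches overlapped in the interval of *Adipoq* and not in that of *Ucp1*. The next largest patch, of 7 spots and 11148 UMIs, had 7 UMIs each of *Ucp1* and *Adipoq*, or 628 CPM (252 to 1294), with *Adipoq* below the other patches.

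A few spots carried most of the brown fat signal. The 20 lower-area spots with the most *Ucp1* held 76.5% of its UMIs there and 14.2% of the UMIs of all genes. For *Cidea* the 20 highest spots held 70.6% and for *Adipoq* 41.5%. By contrast, the 20 spots with the most *Myh4* held 8.41% of its UMIs and 5.06% of all UMIs. *Myh4* was thus less concentrated in single spots, although it stood at 33743 CPM in region 1 and 4518 CPM in region 4. The deepest spot of the slide, with 51420 UMIs and 6225 genes at 15.7 pitches from marked tissue, lay in region 4, with *Ucp1* at 3345 CPM (2864 to 3884) and *Myh4* at 2023 CPM. Without the largest fat patch the ratio of the brown fat list in unmarked over marked tissue was 1.01 in place of 1.70. That patch held 1468 of the 1781 *Ucp1* UMIs of the unmarked tissue. In region 1, which was led by muscle genes, *Cox8b*, made by muscle too, gave 2572 of the 2950 UMIs of the list. The remaining 1.01 is therefore not read as brown fat.

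Region 2 held 443 spots, all 384 of the upper area, 43 of the lower area and 16 of the small patches. It was led by *Calml3* and *Flg*, genes of differentiating keratinocytes, and *Cstdc5*, a protease inhibitor of the stefin family. With 3 or 5 centres or with Ward clustering the adjusted Rand index against these regions was 0.668, 0.696 and 0.655, and the highest brown fat level of a region ran from 4270 to 4656 CPM.

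Genes of peripheral nerve were split. *Mbp*, a myelin protein, stood at 53.4 CPM in the lower area and 19.6 CPM in the upper area, against 25.5 CPM (21.0 to 30.7) in marked tissue, a log2 ratio of 1.07 (0.73 to 1.41) for the lower area, with no call at 2-fold. Against this, *Sox10*, the transcription factor of Schwann cells, stood at 7.60 CPM in the lower area and 28.9 CPM (24.1 to 34.4) in marked tissue, a ratio of -1.93 (-2.56 to -1.34).

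The 43 lower-area spots that clustered with the upper area held 130 of the 225 *Mbp* UMIs of all unmarked spots. In them *Mbp* stood at 748 CPM (625 to 888), against 19.6 CPM (11.8 to 30.6) in the upper area, and the fascia list at 2193 CPM. The largest patch of these spots held 29 of them, at 1.73 to 6.08 pitches from marked tissue, with a median of 2948 UMIs.

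Matrix and granulation genes were lower in the unmarked tissue. *Col1a1*, the main collagen chain of dermis and scar, stood at 10787 CPM (10695 to 10880) against 30604 CPM (30441 to 30767), and at 6909 CPM in the lower and 25745 CPM in the upper area. *Postn*, periostin of wound fibroblasts, stood at 1207 CPM against 3701 CPM, and *Lrrc15*, a surface protein of activated fibroblasts, at 124 CPM against 370 CPM. Of the 10 matrix genes 9 were called lower and 0 higher, and of the 10 granulation genes 8 lower and 0 higher. In the lower area all 10 granulation genes were called lower. *Mmp14*, a membrane-bound collagenase, was low in both areas, with 28.1 CPM in all unmarked, 25.8 CPM in the upper area and 115 CPM in marked tissue.

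Fascia genes did not follow the matrix. *Pi16* stood at 206 CPM in the lower area, 129 CPM (119 to 140) in marked tissue and 91.8 CPM in the upper area, and the fascia list at -0.38 (-0.44 to -0.32) over all unmarked spots, near the median gene, which TMM scaling turned to 0.04. Of the study's 9 candidate inflammation-related genes 0 were called higher and 2 lower. *Itgbl1*, integrin beta-like 1, stood at 27.8 CPM in the lower area and 100 CPM in the upper area against 124 CPM (114 to 135) in marked tissue, and *C3*, the central complement protein, at 346 CPM and 135 CPM against 160 CPM.

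Immune and vessel genes were mostly at or below the marked level. Of 10 macrophage genes 5 were called lower, among them *Lyz2*, lysozyme, at 409 CPM against 1077 CPM, and of 8 genes of lipid- and matrix-handling macrophages 5 were. *Ccl4*, a chemokine of activated myeloid cells, had 5 UMIs against 45. Of 10 endothelial genes 0 were called, and the list stood at -0.34 (-0.43 to -0.26), which TMM scaling turned to 0.08. The pericyte list stood at -0.41 and turned to 0.01. T cell genes were too rare to describe, with *Cd3g* found in 12 of 1383 members at 1 UMI each. *Ighm*, the heavy chain of IgM, stood at 77.5 CPM (69.8 to 85.7) against 46.5 CPM (40.4 to 53.3), with no call.

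Red blood cell genes had the highest ratio of all lists. *Hbb-bs*, a beta globin, stood at 664 CPM (641 to 687) against 144 CPM (133 to 156), with 4 of 4 counted genes called higher, and the list at 2.25 in the lower and 0.38 in the upper area. *Hba-a1* was among the 10 highest genes, but it shares nearly all of its sequence with *Hba-a2*, so its count is uncertain. The 20 spots with the most *Hbb-bs* held 34.1% of its lower-area UMIs.

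The remaining genes at the ends of the ranking need care. *Gm42418* stood at 19194 CPM against 4160 CPM and *Lars2*, a mitochondrial leucyl-tRNA synthetase, at 2105 CPM against 449 CPM. *Gm42418* overlaps a copy of ribosomal RNA, and its reads may not come from a gene of its own. Both were higher still in the upper area, at 26360 and 4501 CPM, unlike the muscle and fat genes. The other genes of the 10 highest were *mt-Atp8* (2.97), *Rbfox1* (2.99), *Thrsp* (2.37), *Ces1d*, a carboxylesterase of fat (2.44), *Car3* (2.24), *mt-Nd4l* (2.37) and *mt-Co1* (2.13). The other genes of the 10 lowest were *Bcat1*, which starts the breakdown of branched-chain amino acids (-2.53), *Ccl21a*, a chemokine of lymphatic vessels (-1.88), *Efemp2*, an elastic fibre protein (-1.87), and *Msr1*, a scavenger receptor of macrophages (-2.58).

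The upper area was marked by epidermis. *Krt5* and *Krt14*, the keratins of the basal layer, stood at 2618 and 2205 CPM there, against 987 (958 to 1016) and 954 CPM (925 to 983) in marked tissue and 258 and 270 CPM in the lower area. *Flg*, filaggrin of the cornified layer, stood at 367 CPM against 71.6 CPM, and *Krt6b*, a keratin of wounded epidermis, at 233 CPM against 42.0 CPM. Of the 12 epidermis genes 9 were called higher in the upper area and 12 lower in the lower area. Pooled over all unmarked spots these opposite differences gave a ratio of -0.38 with 0 of 12 called, which turned to 0.04 with TMM factors, so the pooled value describes neither area.

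*Krt14* had a UMI in 375 of 384 upper-area spots, with 0, 5 and 30 UMIs at the lowest, the median and the highest, against 0, 1 and 12 in the lower area. Thinned to 1000 UMIs, the share of spots with a *Krt14* UMI was 86.5% (82.6 to 89.7) in the upper area, 58.1% (53.7 to 62.4) in marked tissue and 24.2% (21.5 to 27.1) in the lower area. The shares do not overlap in their intervals and run in the order of the CPM. Of the neutrophil list 3 of 7 counted genes were called higher in the upper area, with a list ratio of 0.92 (0.75 to 1.09). The list stood at 410 CPM (371 to 453) there and at 431 CPM (394 to 471) in the largest patch of region 4, where *G0s2*, a lipolysis inhibitor that adipocytes make too, stood at 358 CPM over the region. *S100a8* and *S100a9*, calcium-binding proteins that neutrophils and wounded keratinocytes make, stood at log2 ratios of 2.26 (1.73 to 2.80) and 2.23 (1.76 to 2.70), and *Slpi*, a protease inhibitor of the same cells, at 2.02 (1.44 to 2.61).

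Most other genes of the upper area lay within 2-fold of the marked tissue. Of the 32 lists, the epidermis was the one past 2-fold in either direction there, and the matrix list stood at -0.27, granulation at -0.23, endothelium at -0.02 and adipocytes at 0.12. Macrophages stood at -0.73 (-0.81 to -0.66), satellite cells at -0.62 (71 UMIs), fascia at -0.52 (-0.63 to -0.40) and slow fibres at -0.44 (-0.60 to -0.28). Besides *Mmp14*, the genes called lower, named after their values were seen, were *Slc4a3*, an anion exchanger, with 1 UMI, and *Extl2*, a glycosyltransferase, with 2 UMIs, against 56 and 69 in marked tissue. With distance the main lists of the upper area moved little. In bands of 0 to 5, 5 to 10 and 10 to 15 pitches the epidermis list stood at 11436, 13738 and 13250 CPM, the matrix list at 66539, 70591 and 71711 CPM and the muscle list at 24111, 21401 and 23414 CPM, while the median depth fell from 2555 to 1496 UMIs. Rarer lists did move. Red blood cells stood at 587 (529 to 651), 439 and 221 CPM (114 to 385), and slow fibres at 349 (304 to 399), 398 and 588 CPM (402 to 830). Whether these spots lie over tissue was not tested.

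**Figure D4:**
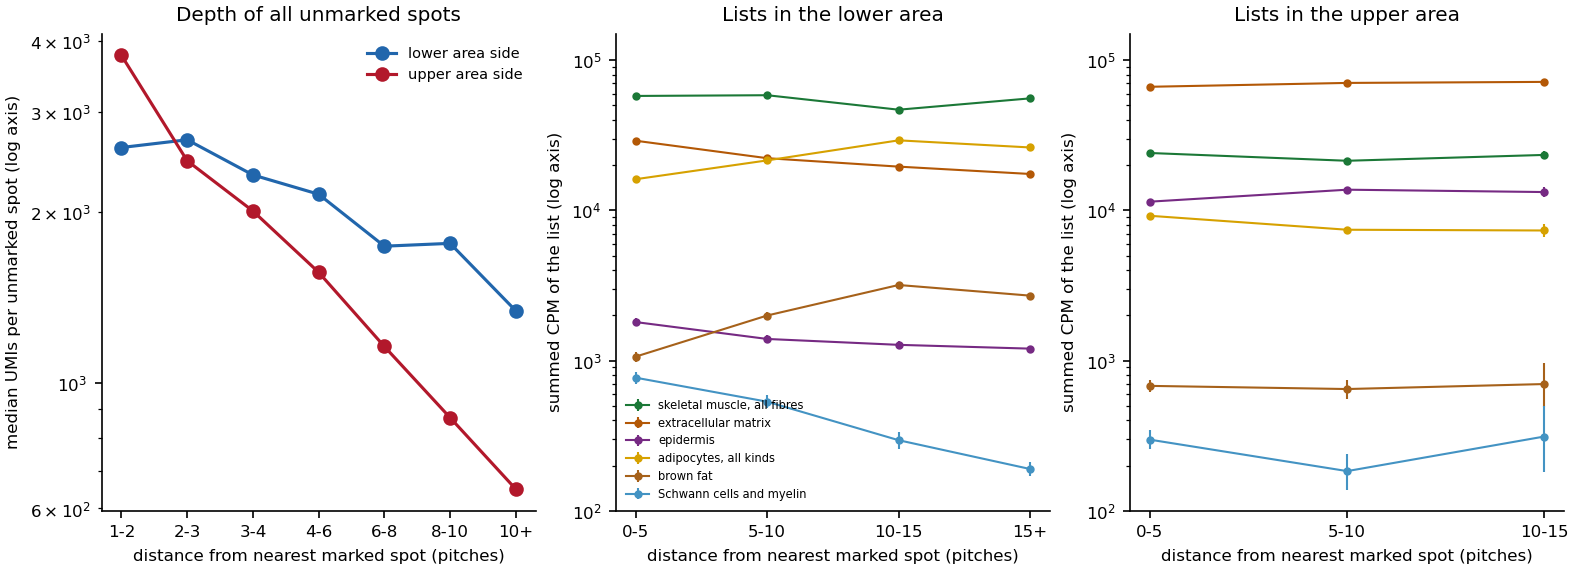
Left, median UMIs of the unmarked spots close to a member by distance from the nearest marked spot on each side of the block, in spot pitches. Middle and right, CPM of gene lists by distance band in the lower and the upper area, with exact 95% intervals for counting error. In the lower area matrix falls from 29098 to 17483 CPM, while in the upper area it stands between 66539 and 71711 CPM.

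The lower area did change with distance. In bands of 0 to 5, 5 to 10, 10 to 15 and 15 or more pitches, which were chosen after the data were seen for single genes, *Myh4* stood at 25560, 25616, 19490 and 21311 CPM. *Myh1* fell through the same bands from 802 to 585, 250 and 184 CPM. *Ucp1* stood at 57.1, 300, 815 and 439 CPM, highest where the large fat patch lay. *Mbp* stood at 117, 118, 31.7 and 13.1 CPM, while *Col1a1* fell from 10236 to 5691 CPM and *Postn* from 1032 to 670 CPM. *Actc1* was at its highest, 2116 CPM, in the farthest band, and at its lowest, 1270 CPM, in the third.

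Spots of very low depth held muscle RNA too. The 310 spots of under 200 UMIs that lay at least 5 pitches from any marked spot or member held 47185 UMIs in all. Their muscle list stood at 53640 CPM, within a log2 ratio of 0.03 of the lower area, and their fast-fibre list at 102215 CPM, within 0.12. Brown fat stood 1.34 and adipocytes 1.20 higher in the lower area than in these spots. The part of this background in the muscle values was not tested. After subtraction of this profile the muscle ratio of unmarked over marked tissue was 1.10 in place of 1.07.

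Muscle was then compared at like content. Spots in which the muscle list made up at least 5.99% of UMIs, the median over the members, were 692 unmarked spots, 680 of them in the lower area and 0 in the upper, and 53 marked spots. They held 2187141 and 136223 UMIs, and the fold calls rest on the smaller set. Of 4863 genes, 3 (0.0617%) were called higher and 13 (0.267%) lower in the unmarked muscle-rich spots, and the muscle list differed by 0.16 (0.13 to 0.19). Because the same genes chose these spots, that last value is a description.

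The muscle-rich spots differed in fibre type. *Myh1* stood at 433 CPM in unmarked and 5080 CPM in marked spots, a log2 ratio of -3.55 (-3.70 to -3.41), while *Myh4* stood at 33862 and 25869 CPM. Per UMI of *Myh4* there were 0.0128 UMIs of *Myh1* (0.0120 to 0.0136) in unmarked and 0.196 (0.181 to 0.213) in marked muscle-rich spots. *Mb* stood at 155 against 1600 CPM, a ratio of -3.36 (-3.61 to -3.11). It belongs to the muscle list that chose these spots, so its value too is a description. Among genes named after their values were seen, *Fhl1*, a LIM protein of muscle (-3.92), *Mybpc1*, the slow myosin-binding protein C (-3.50), and *Actn2*, the alpha-actinin of all fibre types (-3.18), went with them. *Actc1* stood at 2689 against 1064 CPM, a ratio of 1.34 (1.10 to 1.58). *Amd2* and *Amd1*, near-identical copies of the enzyme that commits S-adenosylmethionine to polyamines, were among the 5 highest, each with 2 to 6 UMIs in the marked spots, as was *Asb5*, an ankyrin repeat protein of muscle, with 466 UMIs against 7.

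With the upper quartile as the limit, 346 unmarked and 8 marked spots remained, and *Myh1* stood at -3.26 and *Actc1* at 2.75. The marked values then came from 13908 UMIs.

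The same rule gave 310 spots on the Day 3 and 1183 on the Day 14 slide, with 883442 and 3362487 UMIs. Each day is 1 section, so day, animal and where the section was cut cannot be told apart. Over the Day 3 members 286 of 9239 genes (3.1%) were called higher and 147 (1.59%) lower on Day 7, and over the Day 14 members 301 of 10581 (2.84%) and 268 (2.53%), with the median gene at 0.31 and 0.01. The Day 7 spots are shared by both comparisons. Muscle was present on all days, with *Acta1* at 24537 CPM on Day 3, 23142 on Day 7 and 26432 on Day 14, and the muscle list on Day 7 stood at -0.20 against either day.

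**Figure D5:**
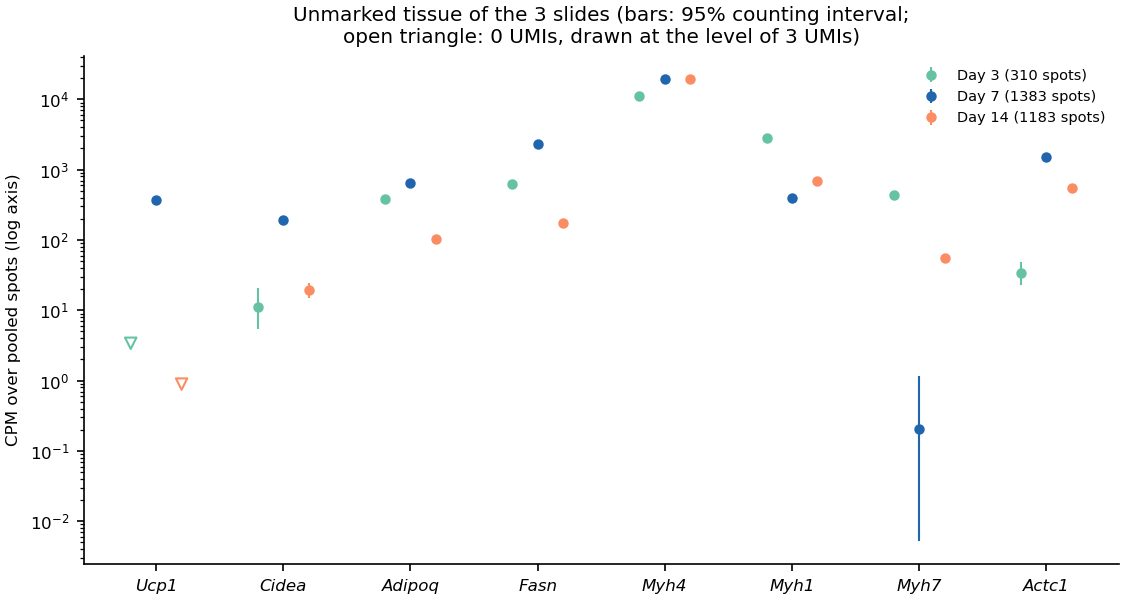
CPM of 8 genes in the unmarked spots of the Day 3, Day 7 and Day 14 slides on a log axis, with exact 95% intervals for counting error; an open triangle stands for 0 UMIs and is drawn at the level of 3 UMIs. *Ucp1* had UMIs on Day 7 alone, *Myh7* had 1 UMI there, and *Myh4* stood at 11249 CPM or more on all days.

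*Ucp1* was detected in these spots on Day 7 alone. It had 1781 UMIs in the Day 7 members and 0 in those of Day 3 and Day 14, so it was at least 108-fold and at least 412-fold higher, taking 3 UMIs over the group as the floor. Over all 4992 spots of each slide the Day 7 slide had 2437 of its UMIs, the Day 14 slide 9 and the Day 3 slide 0. *Cidea* stood at 195 CPM against 11.3 and 19.3 CPM. *Adipoq*, the marker of all adipocytes, stood at 650 CPM against 377 and 104 CPM, so adipocyte RNA was present in the unmarked spots of all days. *Kcnk3*, a potassium channel of brown fat and vessels, had 194 UMIs against 1 on Day 14. The brown fat list itself did not differ in this way from Day 3 (-0.10), where *Cox8b*, made by muscle too, gave most of its UMIs, and it stood at 0.74 over Day 14.

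Lipid synthesis was higher on Day 7 than on either day. The list stood at a log2 ratio of 1.48 (1.43 to 1.54) over Day 3 and 2.13 (2.09 to 2.17) over Day 14, with 4 of 8 and 7 of 8 genes called higher. *Fasn* stood at 2305 CPM against 626 and 174 CPM. Of the 12 adipocyte genes 1 was called higher over Day 3 and 10 over Day 14.

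The lists of regenerating fibres and granulation tissue were also highest in the Day 7 spots. *Actc1* stood at 1516 CPM, and in the Day 3 and Day 14 spots at 34.0 and 551 CPM, with log2 ratios of 5.48 (4.97 to 6.05) and 1.46 (1.39 to 1.53). The regenerating-fibre list, most of whose Day 7 UMIs came from *Actc1*, stood at 4.31 and 1.30. *Postn* stood at 1207 CPM against 74.7 and 293 CPM, and the granulation list at 3.26 and 1.63, with 9 of 10 and 7 of 10 genes called higher. *Tnn*, a tenascin, and *Prss35*, a serine protease-like protein of wound fibroblasts, had no UMI in the Day 3 spots and were at least 35.4-fold and 32.7-fold higher on Day 7, and *Lrrc15* had 599 UMIs against 1.

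Slow muscle went the other way. *Myh7* had 1 UMI in the Day 7 members against 390 on Day 3 and 185 on Day 14, and *Myl2*, the slow regulatory light chain, had 1 against 392 on Day 3. All 11 counted slow-fibre genes were called lower than on Day 3, with the list at -3.82 (-3.91 to -3.72), and 7 of 11 than on Day 14, at -1.39 (-1.50 to -1.29). For each *Myh4* UMI the Day 7 members held 0.0205 of *Myh1*, those of Day 3 0.254 and those of Day 14 0.0360. The unmarked muscle of Day 7 was thus the one poorest in slow and IIX genes among the 3 sections.

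Other tissues differed by day as well. Neutrophil genes stood at -3.61 against Day 3, with *S100a9* at 19.2 CPM against 1032 CPM, *Cxcl2*, a neutrophil chemokine, with 1 UMI against 826, *Ccl4* with 5 against 466, and *Trem1*, a receptor of neutrophils and monocytes, at least 197-fold lower. Hair follicle genes stood at -3.95 against Day 14, where *Krt71*, *Krt25* and *S100a3* had 1992, 1222 and 526 UMIs and none on Day 7, at least 956-fold, 586-fold and 252-fold lower. *Krt27* and *Tchh*, a keratin and the trichohyalin of the inner root sheath, had 1 and 4 UMIs against 1175 and 1109. *Krt6b* had 289 UMIs against 3 on Day 14, and *Lce3c* and *Lce3f*, proteins of the cornified envelope, had 280 against 4 and 104 against 0. Red blood cell genes stood at -3.47 against Day 3 and -1.99 against Day 14. Tendon genes stood at -1.21 and -2.44.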

How the data were processed

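Raw UMI counts per gene and spot were deposited for 3 Visium slides, 1 section each from Day 3, Day 7 and Day 14. Per the submitters' processing notes the authors made them with Space Ranger 1.3.0 and mm10. The annotation release is not given in the sources used here. Deposited counts were not normalized, and each file holds 32285 genes, of which 40 rows sharing a symbol were summed, and all 4992 spots, marked and unmarked. The 3 slides carry the same 4992 barcodes by design.

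UMIs were summed over a set of spots and divided by those of all genes (CPM). Sums carry exact Poisson, shares exact Clopper-Pearson and ratios exact conditional binomial 95% intervals. A gene was called when it had 50 UMIs over both groups and its interval lay past 2-fold. No p-value was computed, since each day had 1 section. A gene with 0 UMIs in a group was set against a floor of 3 UMIs. For regions, counts were brought to a common median depth on a log scale, and the 2000 most variable genes found in 10 or more members gave 20 principal components for k-means (4 centres, 20 starts, seed 0). Leading genes had at least 100 UMIs in the members and are ordered by their ratio to the other members. Spots were thinned to 1000 UMIs with seed 1. The ratio intervals and the call rule were tested on simulated counts, and the clustering was not. No doublet caller was run.

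The members and the 32 lists (308 genes) were chosen with earlier results of these data known. Named genes were the list genes, the 10 highest and 10 lowest in unmarked over marked tissue, the 5 highest and 5 lowest against the Day 3 and the Day 14 members, in the order of whichever end of the interval lay closer to 0, and 3 leading genes per region. Any other gene was named after its values were seen. A listed gene is not reported here. Gene positions come from GENCODE M21 on mm10. Scaling factors came from edgeR 4.0.16 and DESeq2 1.42.0 (R 4.3.3), and the rest was computed with Python 3.11.15, numpy 2.4.6, scipy 1.17.1, pandas 2.3.3, scikit-learn 1.9.0 and matplotlib 3.10.9.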

Additional observations from a re-analysis of the deposited data

Results flagged for a closer look

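In 10 cases a gene list stood on opposite sides of the marked tissue on different days, with counting intervals that lay apart from 0. These differences between days were not tested, since each day had 1 section, and each value below is the log2 ratio of unmarked over marked tissue. The summed lipid synthesis list, which holds *Fasn* and *Scd1*, stood at 1.19 on Day 7, against -0.68 (-0.74 to -0.62) on Day 3 and -0.76 (-0.80 to -0.72) on Day 14. The tendon list stood at -0.78 on Day 7, against 1.74 (1.37 to 2.13) on Day 3 and 0.99 (0.87 to 1.11) on Day 14. The mast cell list stood at 0.33 on Day 7, against -1.25 (-1.87 to -0.67) on Day 3, from 30 unmarked UMIs, and -1.03 (-1.29 to -0.79) on Day 14. The muscle stress and atrophy list stood at 0.0905 on Day 7, against -0.81 (-0.93 to -0.69) and -0.80 (-0.85 to -0.75). The median gene was itself negative in this ratio, at -0.66 for the Day 3 slide, -0.60 for Day 14 and -0.43 for Day 7. It lay within the Day 3 interval of the lipid synthesis list, which thus moved with it. The Day 14 lipid value and both negative stress values lay below the median gene, with intervals apart from it. Most of each of these values was still shared with the median gene. The slow-fibre list stood at -1.09 on Day 7 and 1.01 (0.93 to 1.08) on Day 3, and the satellite cell list at -0.31 on Day 7, which TMM scaling turned to 0.12, and 0.48 (0.03 to 0.93) on Day 3, from 74 unmarked UMIs.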

How the results depend on the processing

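The results rest on 1 section, and depth limits genes under about 50 UMIs. Over 12 alternatives for each of 32 lists, 384 values in all, 25 were reversed, in 15 lists. The other 17 lists kept their direction in all 12. Gene counts are given as higher and lower in unmarked over marked tissue, and list values as log2 ratios in the order muscle, brown fat, matrix, epidermis.

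With TMM factors there were 539 and 38 genes, with lists at 1.498, 2.128, -1.007 and 0.04443, and satellite cells (0.1156), fascia (0.0416), endothelium (0.08148) and pericytes (0.01303) reversed. With DESeq2 size factors there were 545 and 36 genes, with lists at 1.507, 2.137, -0.9982 and 0.05325, and the same 4 lists reversed at 0.1245, 0.05041, 0.09029 and 0.02184. Without muscle and mitochondrial genes in the denominator there were 379 and 114 genes, with lists at 1.341, 1.97, -1.165 and -0.1131. With the mean of single-spot CPM 774 genes were lower, with lists at 0.8217, 0.9001, -1.025 and 0.02525, and neutrophils reversed at -0.02526. After background subtraction there were 466 and 1614 genes, with muscle at 1.101, matrix at -1.466 and epidermis at -0.4255. For the mean of single-spot CPM and for background subtraction, a gene was counted when its ratio alone passed 2-fold, without an interval. Those gene counts follow a looser rule and cannot be set against the others.

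With 500 or more UMIs per spot matrix stood at -1.395 and epidermis at -0.2448, and with 2000 or more brown fat at 1.813, matrix at -1.517 and epidermis at -0.6446. At 3 or more pitches from marked spots the lists stood at 1.113, 1.826, -1.573 and -0.6219, and with the spots next to marked ones included at 1.028, 1.616, -1.329 and -0.1604.

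The following were chosen after seeing the data. In the lower area alone 1228 genes were lower, with lists at 1.253, 1.931, -1.99 and -1.793 and neutrophils reversed at -0.03775. In the upper area alone there were 80 and 3 genes, with lists at 0.01954, 0.08203, -0.2721 and 1.387. Reversed there were regenerating fibres (-0.2382), fatty acid oxidation (-0.02968), the respiratory chain (-0.07097), glycolysis (-0.007576), pericytes (0.0701), T cells (0.3409), B cells (-0.2875), hair (0.3798), proliferation (0.1386) and immediate early genes (0.022). Without the largest fat patch 201 genes were lower, with lists at 1.374, 1.008, -1.249 and -0.09593 and neutrophils at -0.15. Against the other days, the lower area alone had brown fat at 0.1281 over Day 3, reversed, and lipid synthesis at 1.654 over Day 3 and 2.305 over Day 14.

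The highest brown fat level of a region was 4656 CPM with 5 centres and 4584 CPM with Ward clustering. The share of members with a *Ucp1* UMI was 17.89% at 2000 UMIs, where marked spots stood higher at 20.1%, and 23.28% unthinned. In muscle-rich spots *Myh1* stood at -3.258 and *Actc1* at 2.752 with the upper quartile as the limit. The cause of these shifts was not tested. No paired analysis was possible because the labels carry no replicate numbers and each day has 1 section.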
